A study of Mus musculus with 6 samples.

Results

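The haematopoietic niche cytokines of stromal cells examined here are 9 secreted or membrane-bound factors, KITL, CSF1, CSF2, CSF3, IL6, IL7, IL11, LIF and FLT3L, together with the adhesion molecule VCAM1. They were chosen by name, as all probes whose gene symbol is 1 of these 10, which gave 22 of the 45281 probes of the array and 10 of its 30854 gene names. The study used PA6 cells, a murine stromal line that serves as a feeder layer for embryonic stem cells. It asked how the stroma itself responds to 2 growth factors. Confluent PA6 cells in pure cultures spent 3 h in serum-free medium that held no growth factors (-GFs), recombinant FGF2 at 20 ng/ml, or recombinant BMP4 at 10 ng/ml according to the sample labels. There were 2 biological replicates per group, each made of 1 well per condition, and 1 array (Illumina MouseWG-6 v2.0) per well. PA6 is a single established line, so that the replicates are cultures of the same cells.

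Marrow stromal cells hold blood progenitors in place and feed them with cytokines. KITL acts through the receptor tyrosine kinase KIT on stem cells and mast cells, CSF1 on macrophages, CSF2 and CSF3 on granulocyte and macrophage precursors, IL7 and FLT3L on lymphoid and dendritic precursors, and IL6, IL11 and LIF signal through the shared receptor chain gp130 (IL6ST) to STAT3. VCAM1 binds the integrin of ITGA4 and ITGB1 on progenitors and retains them on the stroma.

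The median intensity of the arrays was 168.1 and 156.1 in -GFs medium, 161.5 and 162.6 with FGF2, and 153.4 and 167.8 with BMP4. A probe was taken as detected at a detection p-value under 0.05 against the negative control beads of its array, and the dimmest detected probe of an array lay between 7.56 and 7.62 on the log2 scale of the spline normalized intensities. To be retained, a probe had to be detected on each of the 2 arrays in 1 group or more; 11872 genes with such a probe, each taken by its brightest one, were tested with limma. A gene was called up-regulated or down-regulated at an absolute log2 fold change over 1 and a Benjamini-Hochberg adjusted p under 0.1, the adjustment covering all genes tested. The study's methods name limma and these thresholds for the arrays. The unpaired Student's t-test, named there under statistical analysis, was run here only as an alternative and is called the methods' t-test. The small number of arrays, 2 per group, limits the precision of every value.

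Most genes of a list of marrow stromal markers were detected, with gaps, which does not identify the tissue the cells came from. Of 19 stromal marker genes, 15 were detected on all 6 arrays, among them DCN, the brightest, and PDGFRA, CXCL12 and VCAM1, whereas LEPR, NT5E and KITL were detected on none. Of 10 leukocyte markers 7 were detected on no array, PTPRC included, and CD14, LYZ2 and CSF1R were detected on at least 5 arrays. Of 6 endothelial markers, 4 were detected on no array, PECAM1 and CDH5 among them, while TEK was detected on 6 arrays and KDR on 4. Of the embryonic stem cell markers NANOG and SOX2 were detected on no array and POU5F1 on all 6, at 7.66 to 7.97 on the log2 scale. The summed intensity of the stromal markers was 173713 and 155274 in -GFs medium, 149701 and 147407 with FGF2, and 179880 and 145921 with BMP4; that of the leukocyte markers stayed between 3091 and 3471.

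Both treatments were visible in genes known to respond to them. EGR1 and DUSP6, an immediate early gene and a feedback phosphatase of the ERK pathway, rose with FGF2 by 4.19 and 3.55 on the log2 scale (adjusted p = 0.00456 and 0.00303). ID1, a target of BMP-SMAD signalling, rose with BMP4 by 2.77 (adjusted p = 0.0094); leaving out either -GFs array (adjusted p = 0.112 for replicate 1 and 0.11 for replicate 2) or BMP4 replicate 1 (adjusted p = 0.116) ended this call, the value in these fits being 2.77 to 2.80. The corresponding value of ID3 was 2.10 (adjusted p = 0.999), and it was called once the replicate number entered the model as a block (adjusted p = 3.58e-07). The PCR reference gene TBP had a log2 fold change of 0.68 with FGF2 (adjusted p = 0.127; 0.00471 with the replicate block). The replicates differed in 2 of 6 genes of preadipocytes and adipocytes, ADIPOQ and LPL, while PPARG (11.11 to 11.67) and DLK1 (15.78 to 15.97) were detected on all 6 arrays with smaller differences, CEBPA on 4 and FABP4 on none. ADIPOQ had log2 intensities of 7.24, 7.30 and 7.29 in replicate 1 of -GFs, FGF2 and BMP4, where it was not detected, and of 11.33, 10.77 and 11.16 in replicate 2. LPL had 7.79, 7.36 and 7.78 in replicate 1 and 9.40, 9.28 and 9.71 in replicate 2. Every treatment was present in both replicates, and the part of this difference in the results below was not tested beyond the fits with the replicate number as a block.

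Most of the 10 genes were at or below the limit of detection in these cells. Of the 22 probes, 10 were detected on no array and 8 were retained. These 8 belong to 5 genes, CSF1, CSF3, IL11, LIF and VCAM1. Only CSF1 and VCAM1 had a probe detected on all 6 arrays. CSF3, IL11 and LIF were retained through the FGF2 arrays alone, so that they had to be higher there to be tested at all, and no count over the tested genes speaks for a direction. KITL, CSF2, IL6, IL7 and FLT3L had no retained probe. In whole cultures, fewer cells making a transcript and less of it per cell cannot be told apart. The plot of all 22 probes shows this split between a pair of genes far above the detection limit and the others around it.

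**Figure D1:**
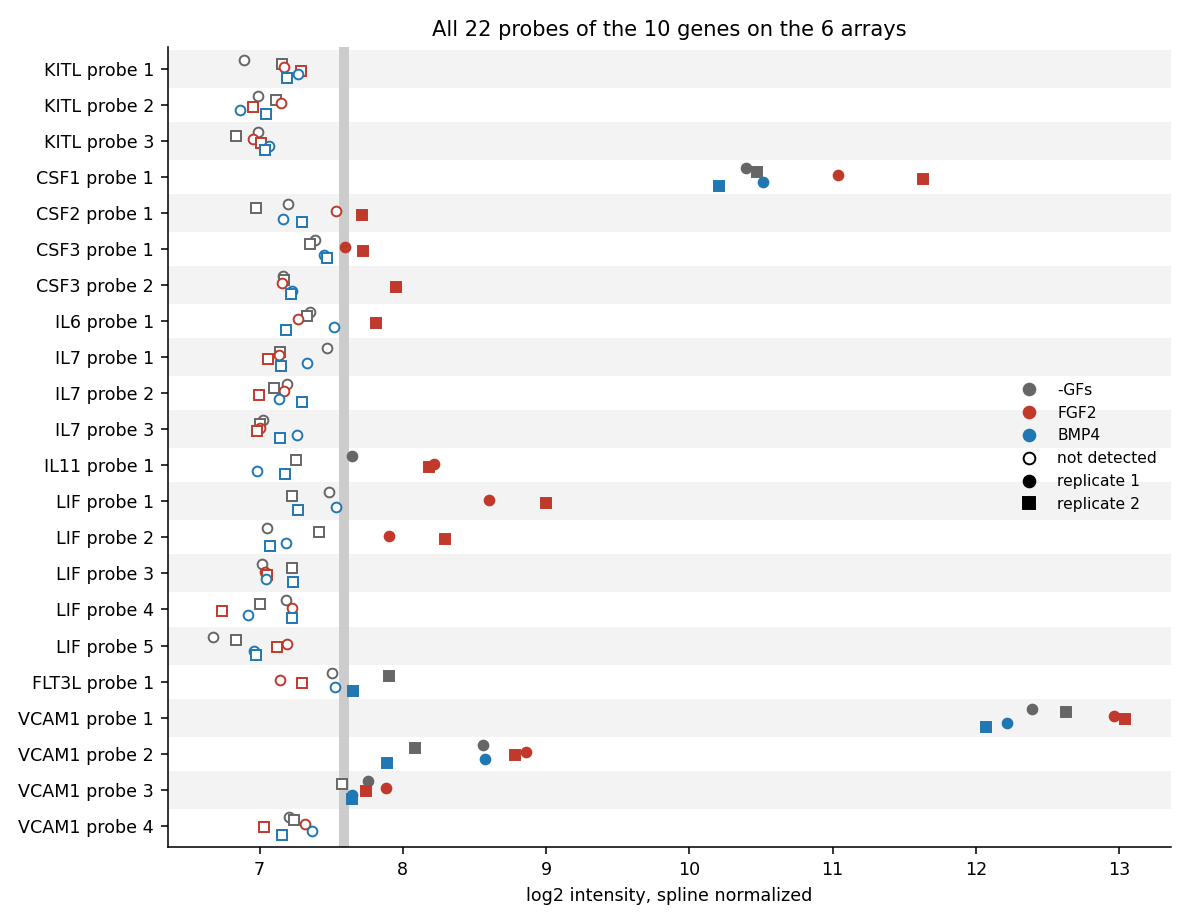
Spline normalized log2 intensity (x axis) of each of the 22 probes (rows, numbered within a gene by decreasing mean) on the 6 arrays, with colours for the groups, circles for replicate 1, squares for replicate 2 and open symbols for values not detected; the grey vertical band spans the dimmest detected value of each array, 7.56 to 7.62. Open symbols fill the rows of KITL and IL7, and FGF2 arrays hold the filled symbols of LIF to the right of the band.

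LIF, a gp130 cytokine that stromal cells secrete and that keeps mouse embryonic stem cells undifferentiated, was the member with the largest fitted change in response to FGF2. Its brightest probe had log2 intensities of 7.49 and 7.22 in -GFs medium, 8.60 and 9.0 with FGF2, and 7.53 and 7.27 with BMP4. The FGF2 arrays lay above all others without overlap, while the -GFs and BMP4 arrays overlapped and the probe was detected on none of these 4. The fitted log2 fold change of FGF2 against -GFs was 1.44 (SE 0.20, adjusted p = 0.0147). Because LIF was not detected in -GFs medium, the rise is given as a lower limit, at least 2.31-fold between the means. For it the mean with FGF2 (8.80) was set against, on each -GFs array, the higher of the probe's own value and the dimmest detected probe (measured -GFs mean 7.36). Against BMP4 the rise was at least 2.32-fold (log2 fold change 1.40, SE 0.20, adjusted p = 0.018, measured BMP4 mean 7.40). Such limits, here and below, allow for the detection limit and not for the spread between arrays. BMP4 against -GFs gave 0.04 (95% CI -0.44 to 0.52).

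The other LIF probes did not all follow. A further retained probe had log2 intensities of 7.05 and 7.41 in -GFs medium, 7.90 and 8.29 with FGF2, and 7.19 and 7.08 with BMP4. It was likewise detected on the FGF2 arrays only, at least 1.42-fold higher than in -GFs medium (means 8.10 and 7.23), and in the fit of all retained probes its log2 fold change of 0.87 stayed under the fold threshold (SE 0.20, adjusted p = 0.058). The remaining 3 LIF probes were detected on no array and lay between 6.68 and 7.24. The call of LIF rests in part on 1 array: without FGF2 replicate 2 its log2 fold change was 1.24 (adjusted p = 0.13) against -GFs and 1.201 (adjusted p = 0.16) against BMP4. With neqc, which subtracts the background of each array before normalization, the fitted values were 2.83 and 2.74, and both were called; their size depends on values that were not detected and on the offset added after the subtraction, so that they add nothing to the lower limits above.

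IL11, a gp130 cytokine of stromal cells that acts on megakaryocyte precursors, separated FGF2 from BMP4. Its single probe had log2 intensities of 7.65 and 7.26 in -GFs medium, 8.22 and 8.18 with FGF2, and 6.98 and 7.18 with BMP4. The 3 groups did not overlap, with FGF2 highest and BMP4 lowest, but the probe was detected on both FGF2 arrays, on -GFs replicate 1 and on no other array, so that the order of -GFs and BMP4 lies within values that were mostly not detected. FGF2 against BMP4 gave a log2 fold change of 1.12 (SE 0.18, adjusted p = 0.025), a call, and at least 1.53-fold as a bound (means 8.20 and 7.08). FGF2 against -GFs gave 0.75 (SE 0.18, adjusted p = 0.0621), under the fold threshold, and BMP4 against -GFs gave -0.37 (SE 0.18, adjusted p = 0.999). The call against BMP4 was lost when FGF2 replicate 1 (1.10, adjusted p = 0.164), FGF2 replicate 2 (1.14, adjusted p = 0.196) or BMP4 replicate 1 (1.02, adjusted p = 0.122) was left out. With neqc, IL11 was called in both comparisons of FGF2, at 1.65 against -GFs (adjusted p = 0.0522) and 2.33 against BMP4 (adjusted p = 0.0265). As for LIF, the size of these values depends on values that were not detected and on the offset.

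The promoters of LIF and IL11, the 2 members called in a comparison, are shown because both rose with FGF2 against BMP4. RefSeq sequences were found for 7 of the 10 genes, in 8 windows, since IL11 has 2 starts. Each window holds the 250 bases before a start, build GRCm38.p6, 5′ to 3′ along the gene's strand, and capitals mark matches on either strand to the AP-1 letters TGANTCA or to the NF-kB letters GGG and CC spaced by 5 bases of any kind, where neighbouring matches may overlap. The LIF window is chr11:4257318-4257567 on the plus strand, directly before the gene. The IL11 windows are on the minus strand; the downstream one is chr7:4778142-4778391, inside the annotated extent of the gene, and of the upstream one the 200 bases outside the annotated gene are printed, chr7:4782908-4783107.
LIF: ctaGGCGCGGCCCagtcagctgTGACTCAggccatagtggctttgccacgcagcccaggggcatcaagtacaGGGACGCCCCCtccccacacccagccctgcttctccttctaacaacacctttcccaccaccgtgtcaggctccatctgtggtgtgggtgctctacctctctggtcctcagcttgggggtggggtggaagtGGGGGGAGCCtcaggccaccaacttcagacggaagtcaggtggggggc
IL11 downstream start: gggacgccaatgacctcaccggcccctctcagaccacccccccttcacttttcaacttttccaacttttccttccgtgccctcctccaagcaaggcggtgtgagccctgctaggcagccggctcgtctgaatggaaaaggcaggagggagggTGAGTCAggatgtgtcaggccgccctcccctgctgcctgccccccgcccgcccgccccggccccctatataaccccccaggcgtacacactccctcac
IL11 upstream start: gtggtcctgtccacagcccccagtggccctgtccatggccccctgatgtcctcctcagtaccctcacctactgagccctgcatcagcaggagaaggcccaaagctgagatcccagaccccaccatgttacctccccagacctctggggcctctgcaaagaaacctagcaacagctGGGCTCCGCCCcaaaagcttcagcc

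The AP-1 letters occur at -228 to -222 before the LIF start and at -98 to -92 before the downstream IL11 start, and also at -249 to -243 before IL6. They are in 6.75% of the 32851 promoter windows of the same length. The windows of KITL, CSF1, CSF2 and FLT3L hold no match to them. The NF-kB letters are in 45.8% of all windows and in those of KITL, CSF1, IL6, the upstream IL11 start, LIF and FLT3L. Of the other letters searched on both strands, the ETS core CCGGAAG (6.91% of all windows) occurs once, before KITL, and CRE TGACGTCA (1.55%), EGR GCGNGGGCG (4.70%) and the CArG box (1.47%) occur in none of the 8. A match is a description, not a site or a cause.

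IL6, the remaining gp130 cytokine, was detected on a single array. Its intensities before normalization were 170.0 and 155.1 in -GFs medium, 154.2 and 220.7 with FGF2, and 173.7 and 151.4 with BMP4. FGF2 replicate 2 alone stood out, and the groups overlapped. IL6 was not retained and was not tested.

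Of the colony-stimulating factors, CSF1 was well expressed and the others were near the limit. CSF1 had log2 intensities of 10.40 and 10.47 in -GFs medium, 11.04 and 11.63 with FGF2, and 10.51 and 10.21 with BMP4. Both FGF2 arrays were higher than the other 4, which overlapped, and the FGF2 arrays differed from each other by more than those of -GFs did. The log2 fold change was 0.90 against -GFs (SE 0.23, 95% CI 0.36 to 1.44, adjusted p = 0.0681) and 0.97 against BMP4 (SE 0.23, adjusted p = 0.0635), so that CSF1 passed the threshold on p and missed that on the fold in both. The value against -GFs was 1.19 with FGF2 replicate 1 left out (adjusted p = 0.11) and 0.61 with FGF2 replicate 2 left out (adjusted p = 0.321), and the adjusted p also rose over 0.1 without either -GFs array (0.17 and 0.167). Against BMP4 it rose over 0.1 without any 1 of the FGF2 or BMP4 arrays (0.105 to 0.324), at log2 fold changes of 0.68 to 1.27, and with neqc the values were 0.97 against -GFs (adjusted p = 0.108) and 1.05 against BMP4 (adjusted p = 0.104). BMP4 against -GFs gave -0.07 (95% CI -0.61 to 0.46).

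CSF3, the granulocyte factor, had log2 intensities of 7.39 and 7.35 in -GFs medium, 7.60 and 7.72 with FGF2, and 7.45 and 7.47 with BMP4 on its retained probe. FGF2 arrays were the only ones on which it was detected, and the groups did not overlap, but the bound against -GFs was only at least 1.05-fold (means 7.66 and 7.37; log2 fold change 0.29, SE 0.14, adjusted p = 0.274). The other CSF3 probe was at 7.95 on FGF2 replicate 2 and between 7.16 and 7.23 on the remaining 5 arrays, where it was not detected. CSF2, the granulocyte-macrophage factor, had intensities of 151.3 and 121.9 in -GFs medium, 185.1 and 207.2 with FGF2, and 136.5 and 163.4 with BMP4. The FGF2 arrays were the highest, but only FGF2 replicate 2 passed the detection limit, so that CSF2 was not retained. FGF2 replicate 2 was thus the highest of the 6 arrays for LIF, CSF1, CSF2, CSF3 and IL6.

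The factors for stem cells and lymphoid cells showed little signal. The 3 probes of KITL lay between 6.83 and 7.29 on the log2 scale and the 3 probes of IL7 between 6.99 and 7.47, and none was detected on any array. At this sensitivity no level and no change of KITL or IL7 could be measured, which does not show that they are absent. FLT3L had intensities of 191.5 and 227.5 in -GFs medium, 140.6 and 158.8 with FGF2, and 175.3 and 207.8 with BMP4. It was detected on -GFs replicate 2 and BMP4 replicate 2 only, and both FGF2 arrays were lower than the other 4. When every gene was fitted without a detection filter, as an alternative, the log2 fold changes of the genes not retained were 0.54 for CSF2 (adjusted p = 0.102), -0.48 for FLT3L (adjusted p = 0.21), 0.21 for KITL (adjusted p = 0.662), -0.21 for IL7 (adjusted p = 0.708) and 0.20 for IL6 (adjusted p = 0.819) with FGF2 against -GFs, all from values that were mostly not detected.

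VCAM1 was the adhesion molecule of the set and was detected on every array. Its brightest probe had log2 intensities of 12.39 and 12.62 in -GFs medium, 12.96 and 13.04 with FGF2, and 12.22 and 12.07 with BMP4. The 3 groups did not overlap, with FGF2 above -GFs and BMP4 below it. FGF2 against BMP4 gave a log2 fold change of 0.86 (SE 0.16, 95% CI 0.48 to 1.23, adjusted p = 0.033), past the threshold on p and under that on the fold. The steps on either side of -GFs were smaller, 0.50 for FGF2 (SE 0.16, adjusted p = 0.119) and -0.36 for BMP4 (SE 0.16, 95% CI -0.74 to 0.01, adjusted p = 0.999). With the replicate number as a block the adjusted p of the step with FGF2 was 0.0141, in a fit where 37.7% of all genes passed 0.1 whatever the fold, and that of the step with BMP4 was 0.58.

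The dimmer probes of VCAM1 gave less. A probe with log2 intensities of 8.56 and 8.09 in -GFs medium, 8.86 and 8.78 with FGF2, and 8.57 and 7.89 with BMP4 was detected on all 6 arrays, and its -GFs and BMP4 arrays overlapped. Its fitted difference between FGF2 and BMP4 was 0.59 (SE 0.26, adjusted p = 0.269 over all retained probes). Another retained probe lay between 7.58 and 7.88, with a difference of 0.17 (SE 0.15, adjusted p = 0.597), and the last was detected on no array. With the mean of the retained probes in place of the brightest, VCAM1 differed between FGF2 and BMP4 by 0.54 (adjusted p = 0.107). The adjusted p of the brightest probe also rose over 0.1 without any 1 of the FGF2 or BMP4 arrays (0.117 to 0.244), while its log2 fold change stayed between 0.78 and 0.93.

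**Figure D2:**
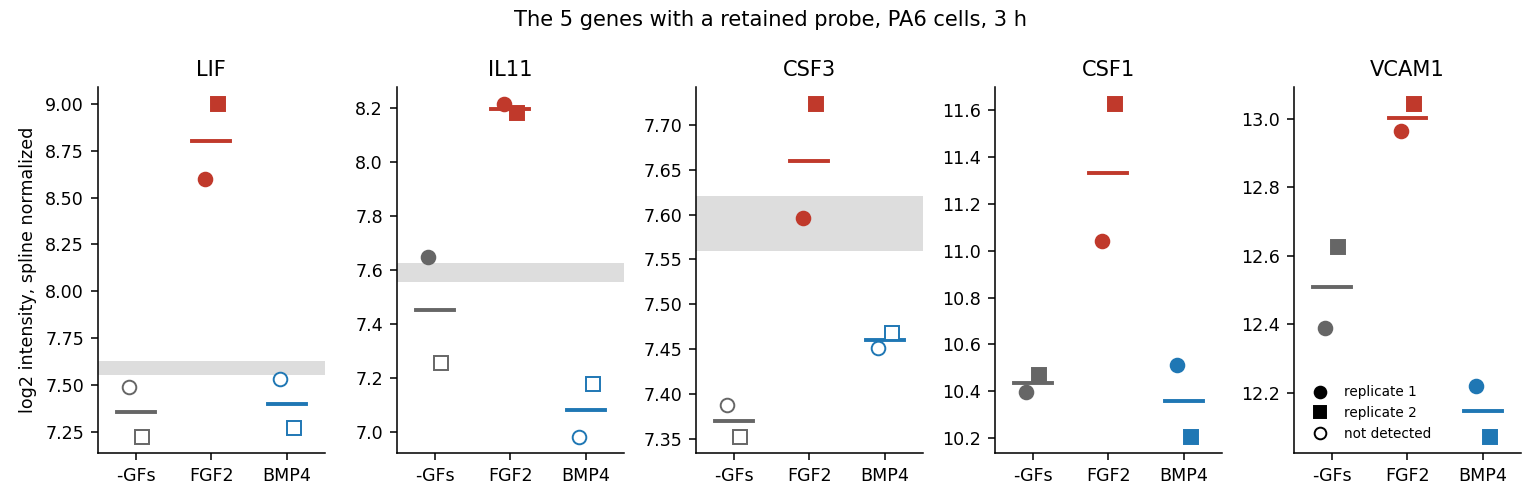
Spline normalized log2 intensity (y axis, a separate scale for each gene) of the brightest retained probe of the 5 tested genes in the 3 groups, with circles for replicate 1, squares for replicate 2, open symbols for values not detected and bars for the mean of 2 arrays; the grey band in the LIF, IL11 and CSF3 panels spans the dimmest detected value of each array. The FGF2 arrays are the highest in the CSF1 and VCAM1 panels; LIF, IL11 and CSF3 had to be higher there to be retained, and the bars of LIF without FGF2 average values that were not detected.

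For FGF2 against -GFs 1 member was called, LIF, beside 3.53% of all genes tested (271 up and 148 down). Whatever the fold, LIF, CSF1 and IL11 had an adjusted p under 0.1, beside 11.8% of all genes; with the replicate block 4 did, VCAM1 added, beside 37.7%. FGF2 against BMP4 called 2 members, LIF and IL11, beside 3.07% of all genes, and 4 (with CSF1 and VCAM1) passed on p alone, beside 9.06%. BMP4 against -GFs called 0 members in limma, with 0 of the 5 at an unadjusted p under 0.05 and 0 in the methods' t-test with the fold threshold. In that comparison 1 gene of 11872 was called (0.00842%), the same share on p alone, and 215 had an unadjusted p under 0.05. When every gene was fitted without a detection filter, limma gave unadjusted p = 0.0285 for VCAM1 (-0.36) and 0.0478 for IL11 (-0.37). The methods' t-test gave unadjusted p = 0.0441 for CSF3, at a log2 fold change of 0.09. The comparisons of FGF2 and BMP4 with -GFs share the -GFs arrays, and those of FGF2 share the FGF2 arrays, so that their values are not independent. The median absolute log2 fold change of all genes was 0.245 for FGF2 against -GFs and 0.109 for BMP4 against -GFs.

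**Figure D3:**
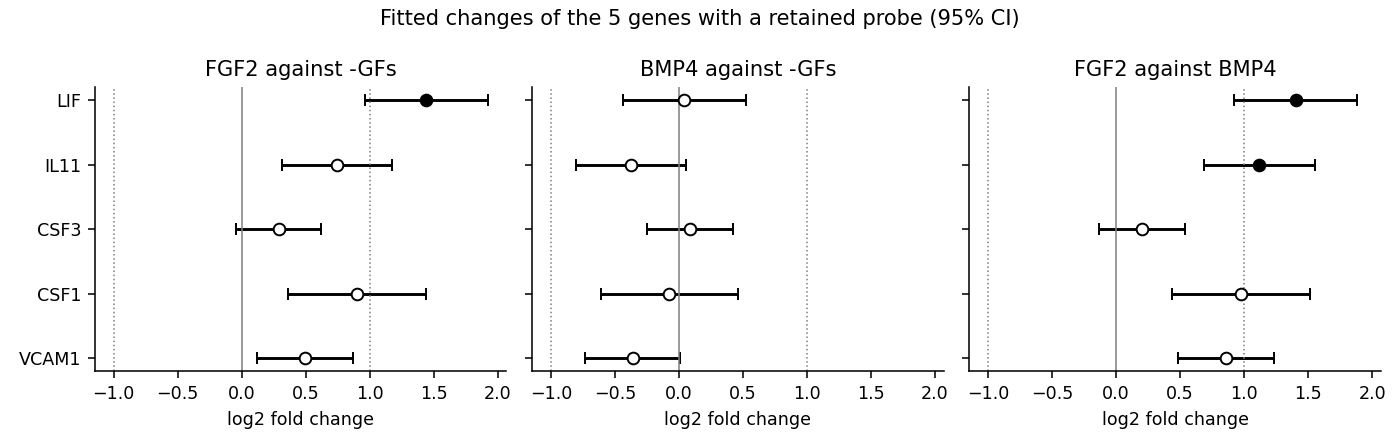
Fitted log2 fold change (x axis) of the 5 tested genes in the 3 comparisons with 95% confidence intervals from limma; filled points are called, dotted lines mark a log2 fold change of 1 in either direction. Intervals of LIF, IL11, CSF1 and VCAM1 lie above 0 in both comparisons of FGF2, and all 5 intervals of BMP4 against -GFs include 0.

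The receptors through which these factors act were measured in the same cells. Of 17 receptor genes 9 were tested, and 0 were called for FGF2 against -GFs in limma (2 at an unadjusted p under 0.05, beside 2767 of the 11872 genes tested), with or without the replicate block, with a median log2 fold change of -0.05 beside -0.02 over all genes. IL11RA1, the binding chain for IL11, had log2 intensities of 15.28 and 15.47 in -GFs medium, 14.70 and 14.90 with FGF2, and 15.33 and 15.62 with BMP4. Both FGF2 arrays were lower than the other 4, and the log2 fold change was -0.57 against -GFs (SE 0.17, adjusted p = 0.108) and -0.68 against BMP4 (SE 0.17, adjusted p = 0.0815). The shared chain IL6ST was between 9.06 and 9.75 with overlapping groups, and LIFR, named after its values were seen, between 7.70 and 8.17. IL6RA, likewise named after its values were seen, passed on p for FGF2 against BMP4 (0.71, SE 0.17, adjusted p = 0.0636), and with neqc it was called (1.201, adjusted p = 0.0709). ITGB1 and CSF2RA were detected on all 6 arrays. Of receptors also named after their values were seen, KIT and CSF2RB were detected on no array, FLT3 and ITGA4 on 1 array each.

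Other ligands of the niche were looked at beside the 10 genes. Of 30 such genes 18 were tested. With FGF2 against -GFs 3 were called up and 0 down, beside 3.53% of all genes called in either direction. The median log2 fold change was 0.04, beside -0.02 over all genes. SPP1 is osteopontin, a matrix cytokine of the endosteal niche. It had log2 intensities of 8.07 and 7.90 in -GFs medium, 12.14 and 10.74 with FGF2, and 7.77 and 7.47 with BMP4. The log2 fold change was 3.45 (SE 0.42, adjusted p = 0.01). It was 2.75 without FGF2 replicate 1 and 4.15 without FGF2 replicate 2. VEGFA, the endothelial growth factor, rose by 1.29 (SE 0.17, adjusted p = 0.0114) and TGFB1, which restrains progenitor cycling, by 1.14 (SE 0.20, adjusted p = 0.0258). All 3 were also called against BMP4. The chemokine CXCL12, the main homing signal of the marrow, had 15.04 and 14.53 in -GFs medium, 14.54 and 14.18 with FGF2, and 15.14 and 14.61 with BMP4, so that the groups overlapped while FGF2 was the lowest within each replicate number. Its log2 fold change with FGF2 was -0.42 against -GFs (SE 0.26, adjusted p = 0.386, or 0.0283 with the replicate block). Against BMP4 it was -0.52 (SE 0.26, adjusted p = 0.313, or 0.00978 with the block). Both values were under the fold threshold in either model. Leaving out 1 array gave -0.675 to -0.166 against -GFs and -0.783 to -0.251 against BMP4. DLK1, GAS6 and PTN were above 14 on every array. GAS6 was slightly lower on both FGF2 arrays (15.61 and 15.59) than on the other 4 (15.67 to 15.96), DLK1 stayed between 15.78 and 15.97, and the groups of PTN overlapped.

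The next 3 niche ligands were named after their values were seen. WNT5A passed on p with FGF2 (0.66, adjusted p = 0.0508). IL15, a cytokine for natural killer cells, had log2 intensities of 7.92 and 8.01 in -GFs medium, 7.51 and 7.34 with FGF2, and 8.30 and 8.26 with BMP4, and was not detected with FGF2. It was thus at least 1.30-fold higher in -GFs medium (means 7.96 and 7.43, adjusted p = 0.0857) and at least 1.61-fold higher with BMP4 (means 8.28 and 7.43, adjusted p = 0.0294) than with FGF2. With neqc it was called in both comparisons (adjusted p = 0.0401 and 0.0193), where the limit given for the neqc values of LIF applies. IL15 was retained through the -GFs and BMP4 arrays only, so that, as for LIF in the other direction, the filter favoured this difference. FGF7 had 11.84 and 10.11 in -GFs medium, 12.25 and 12.16 with FGF2, and 11.33 and 10.53 with BMP4. Both FGF2 arrays were above the other 4. Its log2 fold change of 1.23 (SE 0.54, adjusted p = 0.227) was called with the replicate number as a block (adjusted p = 0.000755), which brought the list to 4 called genes. It was also called without -GFs replicate 1 (2.10). Over all fits that leave out 1 array, the log2 fold change ranged from 0.36 to 2.10 for FGF7. Against BMP4 it had 1.28 (SE 0.54, adjusted p = 0.234) and was called with the block (adjusted p = 0.000606) and without either -GFs array (adjusted p = 0.0586).

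Genes known to follow gp130 and STAT3 signalling form a list of 16, of which 15 were tested. With FGF2 against -GFs 5 were called up and 0 down, beside 3.53% of all genes called in either direction, and the median log2 fold change was 0.27 beside -0.02 over all genes. SOCS3, the feedback inhibitor of gp130, had log2 intensities of 10.47 and 10.44 in -GFs medium, 11.60 and 12.30 with FGF2, and 10.24 and 10.12 with BMP4. The FGF2 arrays stood above the other 4, with a log2 fold change of 1.5 (SE 0.24, adjusted p = 0.0201). JUNB (2.08, adjusted p = 0.0226), FOS (1.61, adjusted p = 0.0918), CISH (1.5, adjusted p = 0.0121) and OSMR, the receptor chain for oncostatin M (1.09, adjusted p = 0.0201), were the others. JUNB and FOS are also immediate early genes of growth factor signalling, so that the list does not separate these pathways. Against BMP4, SOCS3, CISH, JUNB and OSMR were called, FOS was not (1.45, adjusted p = 0.13; 5.89e-05 with the replicate block), and STAT3 (0.65, adjusted p = 0.0522) and CEBPB (0.87, adjusted p = 0.0505) passed on p alone. These 2 differences were made up of a BMP4 side and an FGF2 side: STAT3 had 12.04 and 12.02 in -GFs medium, 12.33 and 12.24 with FGF2, and 11.68 and 11.59 with BMP4, and CEBPB 13.47 and 13.78, 13.73 and 14.05, and 13.09 and 12.94. CISH likewise was lower on both BMP4 arrays (8.76 and 8.93) than on those of -GFs (9.54 and 9.63). IRF1, an interferon response factor, was lower with FGF2 (12.58 and 12.66) than in -GFs medium (13.05 and 13.15) and with BMP4 (12.83 and 12.76), with a log2 fold change against -GFs of -0.48 (adjusted p = 0.102), and the FGF2 and -GFs arrays of MCL1 overlapped. With neqc the call of FOS against -GFs (2.69, adjusted p = 0.127) and that of JUNB against BMP4 (1.69, adjusted p = 0.101) were lost, and so was that of FOS against -GFs with no detection filter (adjusted p = 0.105).

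Of the NF-kB response genes 13 of 17 were tested, all detected on all 6 arrays. The median with FGF2 was 0.25, beside -0.02 over all genes. With FGF2 2 were called up and 0 down, beside 3.53% of all genes called in either direction. Both are chemokines for monocytes. CCL2 had log2 intensities of 8.65 and 9.65 in -GFs medium, 11.12 and 11.70 with FGF2, and 9.10 and 9.32 with BMP4 (log2 fold change 2.26, SE 0.35, adjusted p = 0.0186). CCL7 rose by 1.44 (SE 0.22, adjusted p = 0.0186), and both were called against BMP4. NFKBIA, the inhibitor that NF-kB itself induces, had 11.64 and 12.33 in -GFs medium and 11.80 and 12.0 with FGF2, and the groups overlapped. Of the other bright genes of the list, SOD2 had 0.61 (adjusted p = 0.212, or 0.00259 with the replicate block). TNIP1, an inhibitor of the pathway, had -0.66 (adjusted p = 0.304, or 0.00206 with the block). Over the fits that leave out 1 array, SOD2 ranged from 0.35 to 0.87 and TNIP1 from -1.05 to -0.26. NFKBIZ was slightly higher with FGF2 (11.45 and 11.23) than in -GFs medium (10.98 and 10.82; adjusted p = 0.274). Its BMP4 arrays (11.30 and 10.74) overlapped both groups.

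VCAM1 shares its role with other adhesion molecules, of which 5 of 10 were tested. Of these 1, CD44, was called up with FGF2, beside 3.53% of all genes called in either direction. The median was 0.34, beside -0.02 over all genes. CD44, the hyaluronan receptor, had log2 intensities of 11.70 and 12.0 in -GFs medium, 12.98 and 13.35 with FGF2, and 11.59 and 11.73 with BMP4, a log2 fold change of 1.31 (SE 0.19, adjusted p = 0.0162). CD34 had no call either way, with 9.29 and 9.58 in -GFs medium, 8.71 and 9.13 with FGF2, and 9.28 and 8.96 with BMP4 (-0.52 against -GFs, adjusted p = 0.2). MCAM had 7.72 and 8.05 in -GFs medium and 8.32 and 8.48 with FGF2 (0.52, adjusted p = 0.128). ICAM1 and SELP were each detected on 3 arrays and retained through those of FGF2 alone, so that the median of this list leans to FGF2.

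The messengers of several of these cytokines are short-lived, and regulators of their decay form a list of 9 genes, all tested. ZFP36, which binds AU-rich elements and promotes decay, was called up with FGF2, with log2 intensities of 10.12 and 10.57 in -GFs medium, 11.51 and 11.69 with FGF2, and 10.04 and 10.25 with BMP4 (log2 fold change 1.25, SE 0.20, adjusted p = 0.0201). It was the only call of the list, beside 3.53% of all genes called in either direction. The median of the list was 0.26, beside -0.02 over all genes. ZC3H12A, an endonuclease that cuts cytokine messengers, had 0.90 (adjusted p = 0.266, or 0.000604 with the replicate block). Over the fits that leave out 1 array, this value ranged from 0.31 to 1.49. ELAVL1 was higher on both FGF2 arrays (11.42 and 11.53) than on the other 4 (10.88 to 11.38), and the FGF2 and -GFs arrays of ZFP36L1 and TIA1 overlapped. RC3H1, named after its values were seen, was at least 1.16-fold higher with FGF2 than in -GFs medium (means 7.81 and 7.27, adjusted p = 0.0942). With neqc it was called (1.25, adjusted p = 0.0549), where the limit given for the neqc values of LIF applies. But it was detected on the FGF2 arrays only and so, like LIF, had to be higher there to be tested. KITL and CSF1 are made as membrane proteins and released by proteases. Of 11 genes of this release 8 were tested and 0 were called with FGF2 in limma (3 at an unadjusted p under 0.05, beside 2767 of 11872 genes), with a median of 0.06. RHBDF1, a partner of the sheddase ADAM17 (0.68, adjusted p = 0.0579), and the protease inhibitor TIMP3 (0.99, adjusted p = 0.0688) passed on p alone. TIMP3 was called without -GFs replicate 1 (1.29) and, by a dimmer probe, when every probe was tested. Over all fits that leave out 1 array, its log2 fold change ranged from 0.68 to 1.29. MMP2 had -0.43 (adjusted p = 0.191), and the groups of MMP14 overlapped.

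In all, 12 of the 77 list genes were called up with FGF2 against -GFs and 11 against BMP4, and 0 were called down, beside 3.53% and 3.07% of all genes called in either direction. The lists were drawn up with earlier results of these data known, so that their counts cannot be read as enrichment. BMP4 against -GFs called 0 of the 77 in limma, also with the replicate block or the methods' t-test. In limma 3 of the 15 tested genes of the gp130 list and 0 of the other lists had an unadjusted p under 0.05. Over all genes tested these were 215 of 11872. The methods' t-test at an unadjusted p under 0.05 called 8 of the 12. FGF2 replicate 2 mattered most: without it 2 of the 12, SPP1 and VEGFA, were still called, the adjusted p of the other 10 lying between 0.105 and 0.388 while 8 of these kept a log2 fold change over 1 (1.05 for FOS to 1.97 for CCL2; TGFB1 had 0.93 and OSMR 0.92), and all genes called fell from 419 to 106. Without FGF2 replicate 1 the calls of VEGFA (1.17, adjusted p = 0.108), JUNB (2.30, adjusted p = 0.116), ZFP36 (1.34, adjusted p = 0.119) and FOS (2.16, adjusted p = 0.138) were lost on p, the folds staying over the threshold, and that of FOS also without -GFs replicate 1 (0.183) or 2 (0.22). Against BMP4, 3 of the 11 (CISH, SOCS3 and SPP1) were still called without FGF2 replicate 2, 7 without FGF2 replicate 1, 9 without BMP4 replicate 1 and 9 without BMP4 replicate 2.

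**Figure D4:**
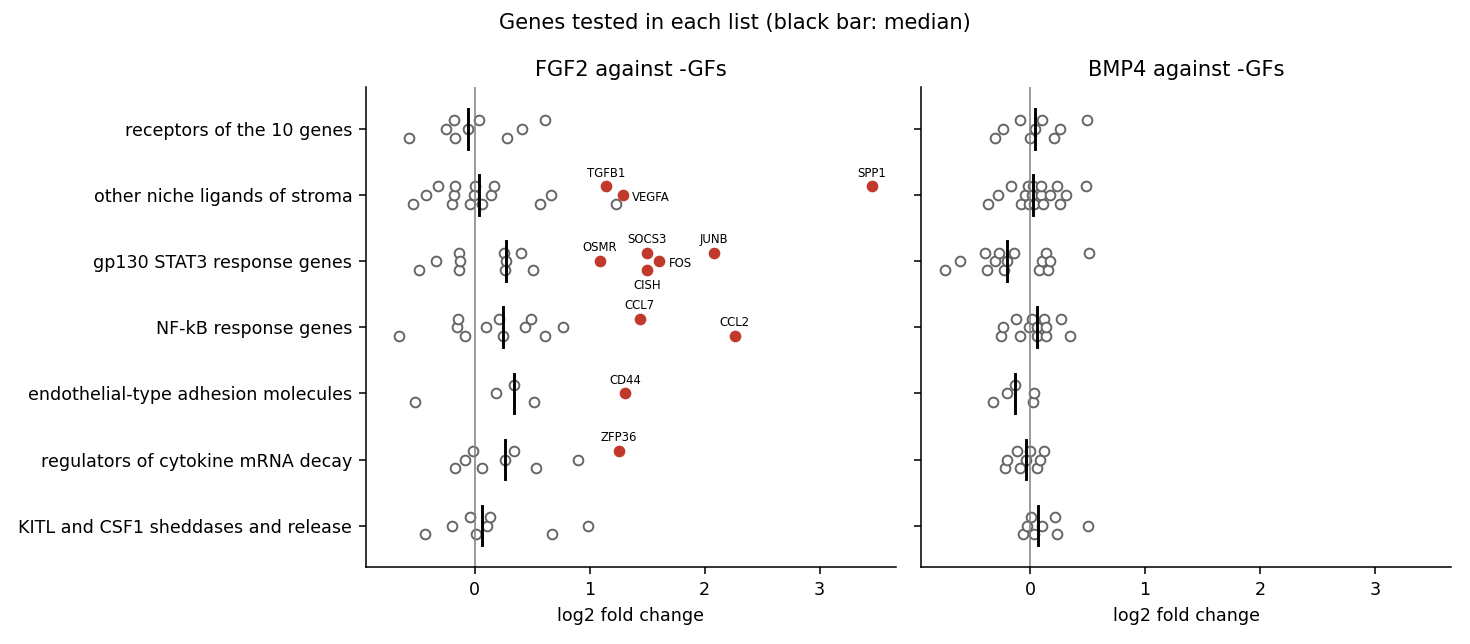
Log2 fold change (x axis) of every tested gene of the 7 lists (rows; vertical offsets only separate points) for FGF2 and for BMP4 against -GFs, with called genes filled and named and a black bar at the median of each list. All 12 called genes are higher with FGF2, SPP1 the most at 3.45, and none is called with BMP4.

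The genes whose pattern lay nearest to the called members were found over the 6 arrays, by the Euclidean distance of the log2 values after subtracting each gene's mean. LIF and IL11 were not detected on 4 and 3 of these arrays, so that the ranks rest largely on the contrast of the FGF2 arrays with the others and are descriptive. Nearest to LIF were the tetraspanin CD9 (distance 0.27), COBLL1 (0.28) and the transcription factor KLF2 (0.33). CD9 had log2 intensities of 10.93 and 10.67 in -GFs medium, 12.0 and 12.19 with FGF2, and 10.77 and 10.48 with BMP4. Being chosen for a pattern near that of LIF, these 3 genes were highest on both FGF2 arrays, with log2 fold changes against -GFs of 1.29, 1.46 and 1.25. Nearest to IL11 were TRIP10 (0.23), ZBTB7A (0.24) and the stress-inducible gene GADD45A (0.32). TRIP10 had 10.86 and 10.68 in -GFs medium, 11.41 and 11.36 with FGF2, and 10.36 and 10.42 with BMP4.

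**Figure D5:**
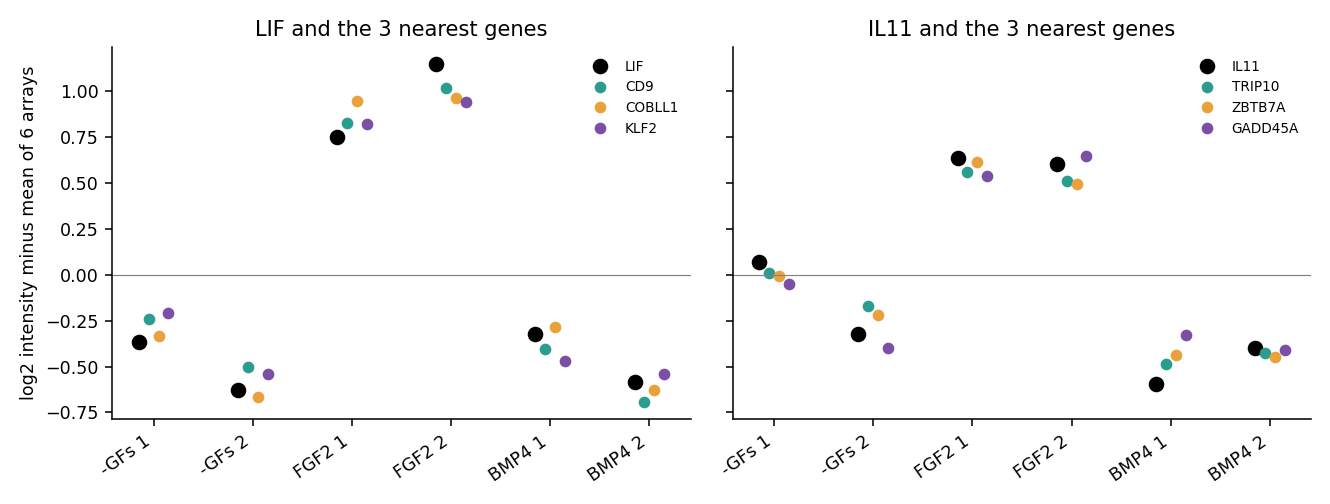
Log2 intensity minus the mean of the 6 arrays (y axis) for LIF and IL11 (black) and the 3 genes with the nearest pattern, on each array (x axis; horizontal offsets only separate points). By this choice, all 4 genes of the LIF panel lie above 0 on the FGF2 arrays and below 0 on the others.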

How the data were processed

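For every array the authors deposited 2 values of each probe: an intensity, which is linear, averages its beads and has not been normalized, and a detection p-value. The submitters' processing notes name GenomeStudio 2011.01. Left unused were 9 unheaded columns, which 2045 lines fill, and 6 stray lines.

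Cubic spline normalization, named in the study's methods, was re-implemented in R 4.3.3 (452 quantiles per array mapped onto the mean of the 6 arrays) and followed by log2. The detection filter (p under 0.05 on the 2 arrays of any group) passed 16111 probes. Where a gene had several, as 3140 of 11872 did, the one brightest on average was used. limma 3.58.1 (lmFit, eBayes) was fitted on 3 groups (no block; 3 degrees of freedom left for the residuals), and every adjusted p is limma's, Benjamini-Hochberg over all genes tested (over all retained probes where a dimmer probe is described). With 2 arrays a side, the smallest 2-sided p of an exact permutation is 0.333. The procedure was tested on simulated data. These held no difference shared by the arrays of a replicate number and no detection limit, so that the test covers neither.

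The replicate numbers pair the arrays: according to the labels each biological replicate was 1 untreated, 1 FGF2 and 1 BMP4 well, and arrays of the same number deviated together from their group means (correlation across genes 0.602, 0.741 and 0.579 for the 3 pairs of groups). A model with this block has 2 residual degrees of freedom. Values given without mention of the block ignore this pairing, also in the fits that leave out 1 array. With the block the adjusted p in limma was 3.3e-06 for LIF and 0.000707 for CSF1 against -GFs, where 37.7% of all genes passed 0.1 whatever the fold. For IL11 against BMP4 it was 3.21e-05. Where neither array of a group detected a probe, its fold is given as a lower limit. This limit compares means of 2 arrays and leaves out their sampling error.

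The 10 genes and the lists were chosen with earlier results of these data known. Named are all 10 genes, the called genes of the lists and up to 4 further genes of each in order of mean intensity, the 3 genes nearest to each called member, and the treatment checks; others, the cell markers picked out of their lists included, were named after their values were seen. Promoter sequences and positions are from RefSeq (GRCm38.p6). The alternatives were other normalizations, detection filters, probe rules, variance models, thresholds and tests, the replicate block and leaving out each array.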

Additional observations from a re-analysis of the deposited data

How the results depend on the processing

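The count of members called with FGF2 against -GFs was 1 (LIF), and it was also 1 with quantile normalization, median scaling, the replicate block and most other settings. It was 2 with neqc (IL11 added), 3 with adjusted p alone, and 0 where detection on all 6 arrays was required, which removes LIF from the test. It was also 0 where the methods' t-test, which is not the study's test for the arrays, was adjusted by Benjamini-Hochberg. That t-test called 0 of all genes. For FGF2 against BMP4 the count of 2 became 4 with adjusted p alone and 0 with detection on all 6 arrays or with that t-test. Over the fits that leave out 1 array the counts ranged from 0 to 1 against -GFs and from 0 to 2 against BMP4. The count for BMP4 against -GFs was 0 in every setting. With the replicate block the counts of members called were 1, 0 and 2, and among the genes given a fold change the block added the calls of FGF7 (against -GFs and against BMP4), FOS (against BMP4) and ID3. Between BMP4 and -GFs the sign of LIF turned with the mean of its probes (-0.029) and, over the arrays left out, ranged from -0.089 to 0.175, and that of CSF1 from -0.227 to 0.078; the cause was not tested. Of 1214 alternatives for 65 gene results, 1120 kept direction and side of the threshold, 76 lost a call, 14 gained one and 4 changed sign. All genes called with FGF2 against -GFs numbered 419, 794 with neqc, 1401 with adjusted p alone, 181 and 106 without FGF2 replicate 1 and 2; against BMP4 they numbered 364, 640, 1076, 124 and 93. With BMP4 against -GFs 1 gene was called, 10 with the block, 8 in the methods' t-test at an unadjusted p under 0.05, and 0 to 2 in the others. Higher genes made up 64.7% of the calls for FGF2 against -GFs, 49.9% with median scaling and 54.4% with neqc. Signal over background limits LIF, IL11, CSF2, CSF3, IL6 and FLT3L, and leaves KITL and IL7 unmeasured. A group left with 1 array was assumed to vary like the others.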

Other observations

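The secreted stromal factors PTN and LUM differed more between the replicate numbers than between the treatments. They are described here because of their values. PTN had log2 intensities of 15.11, 14.83 and 15.02 in replicate 1 of -GFs, FGF2 and BMP4 and of 14.14, 14.44 and 14.28 in replicate 2. The matrix protein LUM went the other way, with 8.18, 8.07 and 8.35 in replicate 1 and 9.53, 9.62 and 9.41 in replicate 2. Neither replicate overlapped the other for these 2 genes, and neither was called in a comparison of treatments.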
